A study of Homo sapiens with 6 samples.

Results

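The mitochondrial ribosomal protein (MRP) genes are the nuclear genes whose symbols begin with MRPL or MRPS followed by a number and, in some, a letter from A to C. Of 53826 entries in the RNA-seq tables, a total of 78 genes met that rule, 49 with MRPL and 29 with MRPS symbols, and no symbol occurred more than once. All 78 reached at least 5 TPM (a level scaled to transcript length and to the library total) in at least 1 library, as did 12412 of all entries, so that every member was analysed. The 6 libraries came from PK-1 and Panc-1, which are 2 human lines derived from pancreatic ductal adenocarcinoma (PDAC), each as a control (Control) and after 24 h with RARγi-1 or RARγi-2. RARγi-1 (LY2955303) and RARγi-2 (MM11253) are antagonists of retinoic acid receptor γ (RARγ), a nuclear receptor that regulates transcription in response to retinoic acid. The doses used for sequencing and the vehicle given to the controls are not stated in the labels, and the treatment entry of the libraries titled RARγi-2 reads RARγi-1, so these were assigned by their titles. With 1 library per condition, a difference within a line had no replicate error, and none is given with a p-value.

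The mitochondrial ribosome (mitoribosome) translates the few messenger RNAs made from mitochondrial DNA, which encode core subunits of the respiratory chain and of ATP synthase. Its ribosomal RNAs are made inside the organelle, whereas every one of its proteins is encoded in the nucleus, made in the cytosol and imported. It descends from a bacterial ribosome. Some of its proteins have relatives in bacterial ribosomes and others were added in the mitochondrial lineage and have none. Dividing cells use it for respiration and for the electron transport that aspartate and nucleotide synthesis depend on.

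The log2 fold change used throughout was log2 of (TPM + 1) in the treated library over (TPM + 1) in the control of the same line. Values of 1 TPM are the floor of the tables. The keratin genes KRT8, KRT18 and KRT19 were well above the floor in all libraries, and their levels were much lower in the treated Panc-1 libraries (KRT8 was at 3530 TPM in Panc-1 Control, 656 under RARγi-1 and 566 under RARγi-2). The epithelial cadherin gene CDH1 was at the floor throughout Panc-1. In PK-1 it was higher in the treated libraries, at 170.1 TPM in Control, 270 TPM under RARγi-1 and 385 TPM under RARγi-2. EPCAM was at 578, 552 and 497 TPM in PK-1 and at 13.4, 19.4 and 9.18 TPM in Panc-1, in the same order. Of 8 markers of other cell types, 6 (PTPRC, CD3E, PECAM1, VWF, DCN and INS) were at the floor throughout. The collagen gene COL1A1 was at 3.21, 11.5 and 13.4 TPM in PK-1 and at 52.4, 4.65 and 2.10 TPM in Panc-1. The trypsinogen gene PRSS1 was at 1.06, 11.1 and 21.2 TPM in PK-1 and at the floor throughout Panc-1. The part of these differences in the results on MRP genes was not tested.

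In each comparison most MRP genes were lower than control, by modest amounts. The median log2 fold change of the 78 members was -0.27 in PK-1 with RARγi-1, -0.48 in PK-1 with RARγi-2, -0.14 in Panc-1 with RARγi-1 and -0.25 in Panc-1 with RARγi-2. In levels, the median member was at 82.9%, 71.5%, 90.8% and 84.0% of control on the TPM + 1 scale. The medians of all 12412 entries were 0.13, 0.00, 0.05 and 0.00 in the same order, and the median of the members minus that of all entries was -0.40, -0.48, -0.19 and -0.25. Within a cell line the comparisons share 1 control library, and a deviation of that library would enter both.

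**Figure D1:**
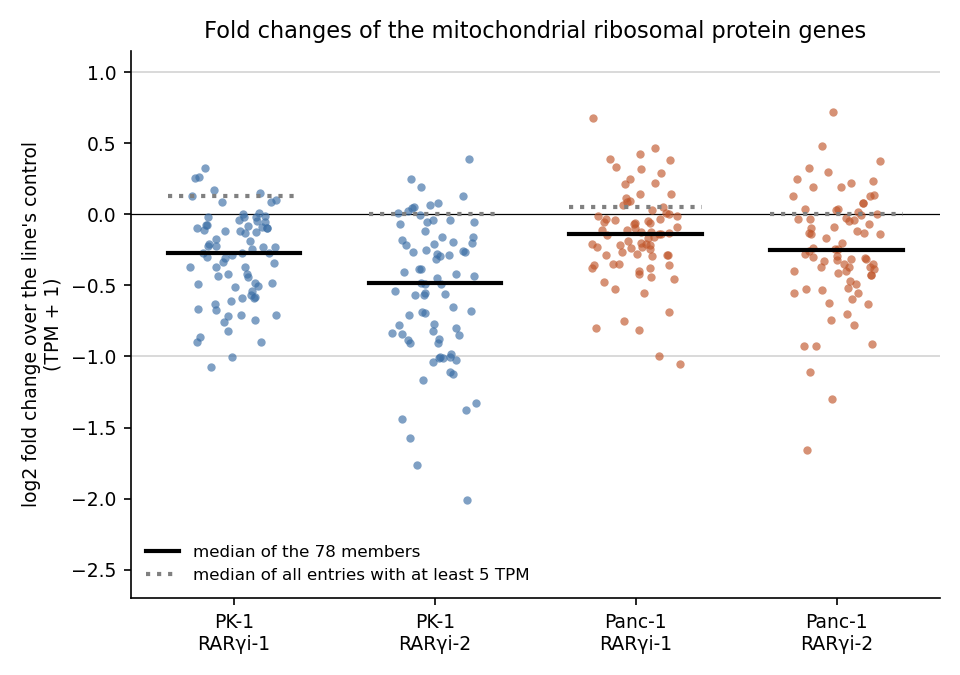
Log2 fold change of each of the 78 MRP genes over the control of its line (points, TPM + 1), for the 4 treated libraries. The black bars are the medians of the members (-0.27, -0.48, -0.14 and -0.25), the dotted bars the medians of all entries with at least 5 TPM, and the thin grey lines mark a 2-fold change. No member lay above the upper line.

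In PK-1 with RARγi-1, 67 of 78 members (85.9%) were lower than control by any amount, against 38.4% of all entries. In PK-1 with RARγi-2 the count was 68 (87.2%), against 47.7% of all entries. In Panc-1 it was 58 (74.4%) with RARγi-1, against 42.1%, and again 58 with RARγi-2, against 49.3%. Rescaling the libraries by median ratios moved these splits. With RARγi-1 they became 92.3% of members against 48.2% of all entries in PK-1 and 79.5% against 52.0% in Panc-1. With RARγi-2 they became 83.3% against 46.0% in PK-1 and 74.4% against 54.1% in Panc-1. Without rescaling, entries at the floor in both libraries of a comparison, such as CDH1 in Panc-1, had a fold change of 0. They were not counted as lower, which keeps the shares of all entries down. After rescaling they took the sign of the shift between the libraries, which was positive only in PK-1 with RARγi-2. They were then counted as higher in that comparison and as lower in the others, so the rescaled shares of all entries depend on them too. Under either scaling the share of members below control was above that of all entries in each treated library.

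Larger differences were not frequent in all comparisons. Members more than 1.5-fold lower numbered 17 (21.8%) in PK-1 with RARγi-1, where 12.3% of all entries were called, and 32 (41.0%) in PK-1 with RARγi-2, where 24% were. In Panc-1 they numbered 6 (7.69%) with RARγi-1 and 12 (15.4%) with RARγi-2, against 14.3% and 22% of all entries, which are the higher shares. The direction of the shift was shared by the lines, and the share of members past 1.5-fold was above that of all entries in PK-1 and below it in Panc-1, a difference between lines that was not tested.

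Past 2-fold, 2 members (2.56%) were lower in PK-1 with RARγi-1 (MRPL1 and MRPL12), against 5.2% of all entries, and 15 (19.2%) in PK-1 with RARγi-2, against 13.5%. In Panc-1 only MRPS34 (1.28%) passed with RARγi-1, against 6.51%, and MRPS34, MRPS24 and MRPL36 (3.85%) with RARγi-2, against 12%. The 15 in PK-1 with RARγi-2 were MRPL1, MRPL3, MRPL4, MRPL12, MRPL14, MRPL16, MRPL17, MRPL19, MRPL24, MRPL30, MRPS12, MRPS25, MRPS27, MRPS34 and MRPS35, and 6 of them had log2 fold changes between -1.04 and -1.01, next to the threshold of -1. After rescaling the libraries by median ratios the counts of 2 and 15 in PK-1 became 4 and 9, and that of 1 in Panc-1 with RARγi-1 became 2. The shares of all entries past 2-fold after rescaling are not given here. Only PK-1 with RARγi-2 had a share of members above that of all entries, and this is shown only without rescaling.

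No member was more than 2-fold higher than control in any treated library, while 9.91% and 12.9% of all entries were in PK-1 with RARγi-1 and RARγi-2, and 7.86% and 9.02% in Panc-1. At 1.5-fold, 0 members were higher in PK-1 with either inhibitor, against 23% and 23.7% of all entries. In Panc-1, MRPS30 was with RARγi-1 and MRPL54 with RARγi-2, 1 member each (1.28%), against 19.4% and 18.9%. The members differed less among themselves than all entries did. The standard deviation of the log2 fold change over members was 0.32, 0.49, 0.32 and 0.40 in the 4 comparisons. Over all entries, which were not matched to the members in level, it was 0.73, 1.04, 0.74 and 0.91. Over 81 genes of cytosolic ribosomal proteins it was 0.22, 0.34, 0.35 and 0.38, so the narrow spread was not particular to the members.

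The summed level of the members shows the same shift weighted by abundance. The 78 genes together made up 9262 TPM in PK-1 Control, 7282 TPM under RARγi-1 and 6288 TPM under RARγi-2, or 78.6% and 67.9% of control. In Panc-1 they made up 11556 TPM in Control, 10223 TPM under RARγi-1 and 9496 TPM under RARγi-2, or 88.5% and 82.2%. The genes of cytosolic ribosomal proteins, 81 with at least 5 TPM, stood at 90.3% and 97.4% of their control sum in PK-1, and at 97.9% and 101% in Panc-1.

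**Figure D2:**
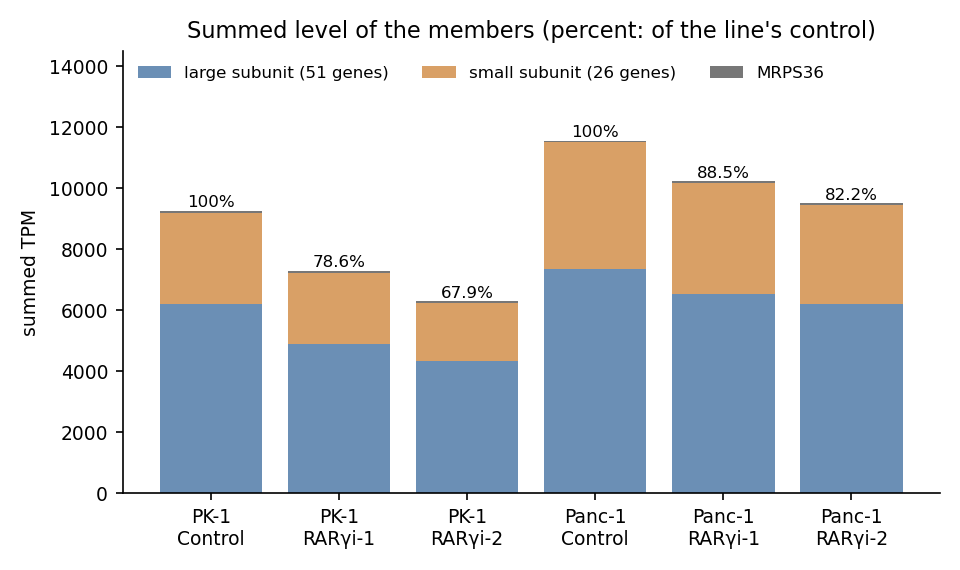
Summed TPM of the MRP genes in each library, stacked by large subunit (51 genes), small subunit (26 genes) and MRPS36, with bars starting at 0. The percentages give the total relative to the control of the same line, which was lowest, at 67.9%, in PK-1 with RARγi-2.

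MRPS34 had the lowest mean log2 fold change over the 4 comparisons. It encodes a protein of the small subunit that is found only in mitochondrial ribosomes and lies at chr16:1771895-1773134 (GRCh38.p14, RefSeq). Its level was 297 TPM in PK-1 Control, 159 TPM under RARγi-1 and 99.2 TPM under RARγi-2. In Panc-1 it was 429 TPM in Control, 206 TPM under RARγi-1 and 135 TPM under RARγi-2. All 4 treated libraries were thus far below their controls, with log2 fold changes of -0.90, -1.57, -1.05 and -1.66.

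MRPL12 was next, at chr17:81703367-81707517. It encodes the mitochondrial L7/L12 protein, which forms the flexible stalk of the large subunit that recruits translation factors, and it has also been described as a partner of the mitochondrial RNA polymerase. Its level was 441 TPM in PK-1 Control, 208 TPM under RARγi-1 and 109 TPM under RARγi-2 (log2 fold change -1.08 and -2.01), the latter the lowest value of any member in any comparison. In Panc-1 it was 481 TPM in Control, 347 TPM under RARγi-1 and 296 TPM under RARγi-2 (log2 fold change -0.47 and -0.70). The controls of the lines were at similar levels and the treated libraries were not.

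MRPS27, at chr5:72219403-72320240, encodes a small-subunit protein with pentatricopeptide repeats, a fold that binds RNA. It was at 111 TPM in PK-1 Control, 58.9 TPM under RARγi-1 and 40.2 TPM under RARγi-2, and at 94.2, 53.1 and 49.5 TPM in the corresponding Panc-1 libraries. MRPS28, the relative of bacterial protein S1, was at 131 TPM, 82.5 TPM and 76.3 TPM in PK-1 and at 96.7, 55.1 and 50.3 TPM in Panc-1. Both genes were below control in all treated libraries, MRPS27 with log2 fold changes of -0.90, -1.44, -0.82 and -0.91 and MRPS28 with -0.67, -0.78, -0.80 and -0.93, in the order PK-1 with RARγi-1 and RARγi-2, then Panc-1.

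MRPL16, a relative of the bacterial protein that helps to position transfer RNA in the large subunit, was at 118 TPM in PK-1 Control, 71.8 TPM under RARγi-1 and 34.1 TPM under RARγi-2. In Panc-1 it was at 83.4, 64.8 and 61.7 TPM. Its log2 fold change of -1.77 in PK-1 with RARγi-2 compares with values between -0.71 and -0.36 in the other libraries. MRPL1, which forms the mobile stalk near the site where used transfer RNA leaves, was at 55.8, 27.3 and 21.6 TPM in PK-1 and at 64.9, 58.7 and 48.0 TPM in Panc-1. Its log2 fold change was below -1 in both treated PK-1 libraries (-1.0 and -1.33) and was -0.14 and -0.43 in Panc-1. MRPS25, the member with the lowest mean control level, was at 17.8, 10.4 and 6.22 TPM in PK-1 and at 24.1, 16.1 and 16.5 TPM in Panc-1.

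MRPS34, MRPS24 and MRPL36 were the 3 lowest members in Panc-1 with RARγi-2. MRPL36, a small protein of the large subunit, was at 262 TPM in Panc-1 Control, 131 TPM under RARγi-1 and 121 TPM under RARγi-2, and at 113, 104 and 71.3 TPM in PK-1. MRPS24, the relative of bacterial S3 at the entry of the mRNA channel, was at 383 TPM in Panc-1 Control, 326 TPM under RARγi-1 and 155 TPM under RARγi-2, and at 116, 81.2 and 79.5 TPM in PK-1. The Panc-1 library with RARγi-2 thus stood apart for MRPS24, with a log2 fold change of -1.30 beside -0.23 with RARγi-1. MRPL23, whose bacterial relative sits at the exit of the peptide tunnel, was at 358, 212 and 214 TPM in Panc-1 and at 118, 90.9 and 102 TPM in PK-1. MRPL36, MRPS24 and MRPL23 all had higher levels in Panc-1 Control than in PK-1 Control.

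**Figure D3:**
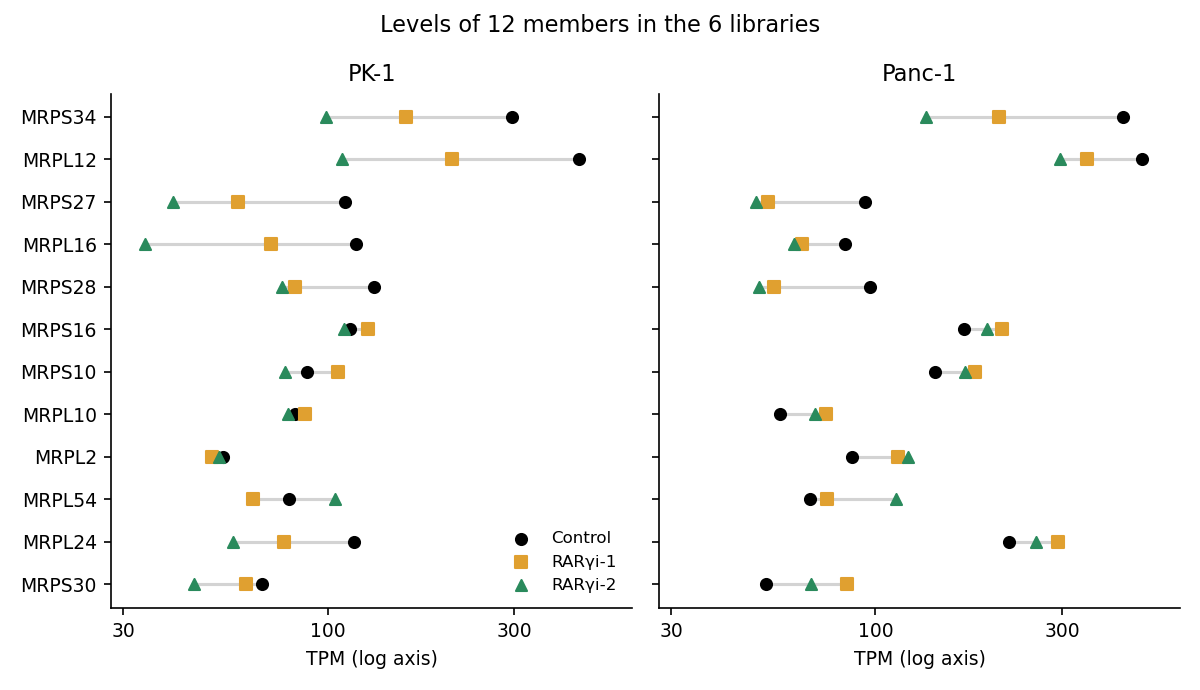
TPM (log axis) in the PK-1 libraries (left) and Panc-1 libraries (right) of the 5 members with the lowest and the 5 with the highest mean log2 fold change, and of MRPL24 and MRPS30. Circles are controls, squares RARγi-1 and triangles RARγi-2, with 1 library each. MRPS34 lies far below control in both lines, and MRPL24 lies below control in PK-1 and above it in Panc-1.

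The members with the highest mean log2 fold changes were MRPL54, MRPL2, MRPL10, MRPS10 and MRPS16. MRPL54, a large-subunit protein found only in mitochondria, was at 79.5 TPM in PK-1 Control, 64.4 TPM under RARγi-1 and 105 TPM under RARγi-2. In Panc-1 it was at 68.2, 75.2 and 113 TPM, and the libraries with RARγi-2 held the highest value in either line (log2 fold changes 0.39 and 0.72). MRPL2, which lies next to the peptidyl transferase centre, was at 54.2, 50.6 and 52.7 TPM in PK-1 and at 86.9, 114 and 121 TPM in Panc-1. MRPL10, the protein that anchors the L7/L12 stalk, was at 82.5, 87.5 and 79.3 TPM in PK-1 and at 56.9, 74.6 and 70.1 TPM in Panc-1. Stalk and anchor therefore differed: MRPL12 was lower in every treated library, whereas the log2 fold change of MRPL10 was 0.08 and -0.06 in PK-1 (the first becoming -0.02 after rescaling) and 0.38 and 0.30 in Panc-1.

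MRPS10 and MRPS16, small-subunit proteins with bacterial relatives, had log2 fold changes of 0.26 and 0.15 in PK-1 with RARγi-1, -0.18 and -0.05 with RARγi-2, and values between 0.19 and 0.34 in Panc-1. MRPS6 had 0.00 and 0.19 in PK-1, as against 0.05 and 0.13 in Panc-1, and both values with RARγi-1 turned negative after rescaling (-0.10 and -0.04). MRPS21 was higher in PK-1 with RARγi-1 than any other member, at 80.2 TPM against 63.9 TPM in Control, and lower in both treated Panc-1 libraries, at 119 and 105 TPM against 124 TPM. MRPL50 was at 67.4 TPM in PK-1 Control, 80.8 TPM under RARγi-1 and 55.9 TPM under RARγi-2. None of these differences exceeded 1.5-fold.

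Both subunits had medians below control in each comparison. Of the 51 members that belong to the large subunit, among them MRPS30 and MRPS18A despite their names, the median log2 fold change was -0.28 and -0.45 in PK-1, as against -0.16 and -0.30 in Panc-1, for RARγi-1 and RARγi-2 in each. Of the 26 of the small subunit it was -0.23 and -0.62 in PK-1, as against -0.12 and -0.19 in Panc-1. The ratio of summed TPM, large over small, was 2.07 in PK-1 Control, 2.11 under RARγi-1 and 2.27 under RARγi-2, and 1.77, 1.79 and 1.91 in Panc-1. The sum of small-subunit genes was at 63.5% of control in PK-1 with RARγi-2 and that of large-subunit genes at 69.6%, and in Panc-1 with RARγi-2 the first went from 4157 to 3244 TPM and the second stood at 84.4% of control. Sums and medians did not give the same order. Except in PK-1 with RARγi-2, the small subunit had the median nearer to 0 but the sum at the lower percentage of control. A sum weighs abundant genes most, such as MRPS34 and MRPS24. In Panc-1 these went from 429 to 135 TPM and from 383 to 155 TPM with RARγi-2. The differences between subunits, and the part of single genes in the order of sums and medians, were not tested.

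Members with relatives in bacteria and members found only in mitochondria, with the MRPS18 family and MRPS36 counted apart, also had medians below control. The 45 with bacterial relatives had medians of -0.37 and -0.68 in PK-1, as against -0.14 and -0.30 in Panc-1, and the 29 found only in mitochondria had -0.27 and -0.45 in PK-1, as against -0.17 and -0.28 in Panc-1. Of the 15 members more than 2-fold lower in PK-1 with RARγi-2, 11 were among the 45 with bacterial relatives. The other 4 (MRPS25, MRPS27, MRPS34 and MRPS35) were among the 29 found only in mitochondria, and 13.5% of all entries were called. Among the 30 large-subunit members with bacterial relatives, 17 were more than 1.5-fold lower in that library, and among the 20 large-subunit members found only in mitochondria 2 were. In the treated Panc-1 libraries these counts were 3 of 30 and 0 of 20 with RARγi-1, and 6 of 30 and 1 of 20 with RARγi-2. In the small subunit the larger share was among members found only in mitochondria. There, 7 of 15 with bacterial relatives and 6 of 9 without were more than 1.5-fold lower in PK-1 with RARγi-2. In Panc-1 the counts were 1 of 15 and 2 of 9 with RARγi-1, and 2 of 15 and 3 of 9 with RARγi-2. Of all entries, 24%, 14.3% and 22% were called, in the same order.

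The 3 genes MRPS18A, MRPS18B and MRPS18C encode alternative relatives of bacterial S18, of which MRPS18A is built into the large subunit. MRPS18A was at 80.2, 86.0 and 95.6 TPM in PK-1 and 107, 114 and 104 TPM in Panc-1. MRPS18B was at 102, 86.8 and 83.2 TPM in PK-1 and 172, 132 and 169 TPM in Panc-1, and MRPS18C at 65.5, 57.8 and 44.1 TPM in PK-1 and 67.4, 78.5 and 69.0 TPM in Panc-1. No member of this family passed 1.5-fold in any comparison. MRPS36, which carries an MRPS symbol but is a subunit of the 2-oxoglutarate dehydrogenase complex and is listed by RefSeq as KGD4, had log2 fold changes between -0.12 and 0.03.

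Across the lines, the members were compared with each inhibitor separately, since the controls of the lines are separate libraries. With RARγi-1, 53 members were lower than control in both lines, 6 higher in both, 14 lower in PK-1 and higher in Panc-1, and 5 the reverse. As shares of the 78 these are 67.9%, 7.69%, 17.9% and 6.41%, and the shares of all entries were 26.1%, 40.7%, 10.5% and 14.2%. With RARγi-2 the counts were 51, 3, 17 and 7, or 65.4%, 3.85%, 21.8% and 8.97%, against 34.8%, 33.8%, 10.9% and 12.1% of all entries. Entries with a fold change of 0 in a line, such as those at the floor in both libraries, fall in none of these patterns. This keeps the shares of all entries down, whereas every member fell in a pattern. Over the 78 members the log2 fold changes in PK-1 and Panc-1 had a Pearson's r of 0.41 (Spearman's rho 0.40) with RARγi-1 and of 0.52 (rho 0.52) with RARγi-2, where all entries gave r of 0.56 and 0.62. These are descriptions across genes, which are not independent replicates and share each library's depth and composition. Without MRPS34, MRPL12 and MRPS27, r over the other 75 members was 0.31 and 0.43.

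**Figure D4:**
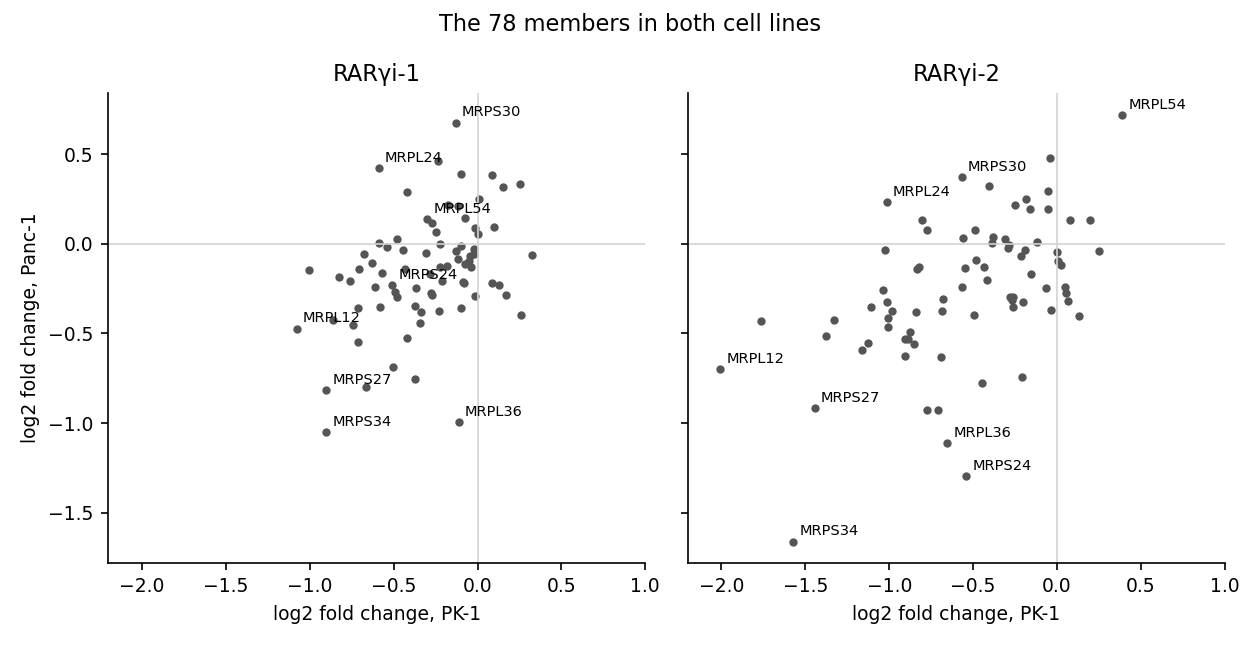
Log2 fold change in PK-1 (horizontal) and in Panc-1 (vertical) of each of the 78 members, for RARγi-1 (left) and RARγi-2 (right), with 8 members labelled. MRPS34 and MRPS27 lie low on both axes, and MRPL24 and MRPS30 lie left of 0 and above 0.

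Members more than 1.5-fold lower in both lines numbered 3 with RARγi-1 (MRPS27, MRPS28 and MRPS34), or 3.85% of members, against 6.13% of all entries. They were 17.6% of the 17 in PK-1 and 50% of the 6 in Panc-1, where the corresponding shares over all entries were 49.9% and 42.9%. With RARγi-2 they numbered 9 (MRPL12, MRPL19, MRPL20, MRPL34, MRPL36, MRPS26, MRPS27, MRPS28 and MRPS34), or 11.5% of members, against 12.4% of all entries. They were 28.1% of the 32 in PK-1 and 75% of the 12 in Panc-1, against 51.9% and 56.5% over all entries.

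A fit over both lines, added after the data had been seen, took the lines as the only replicates (limma on log2(TPM + 1) with line as block and 2 residual degrees of freedom, Benjamini-Hochberg adjustment over the 12412 entries). It tests what the lines have in common, and both inhibitors share the controls. With RARγi-1 it called 0 members at an adjusted p below 0.05, and 0% of all entries lower, while 8 members (10.3%) were lower at an unadjusted p below 0.05, against 9.24% of all entries. With RARγi-2 it called 5 members lower (6.41%: MRPL20, MRPL34, MRPS27, MRPS28 and MRPS34) and none higher, against 9.49% of all entries lower and 9.65% higher. At an unadjusted p below 0.05, 27 members (34.6%) were lower with RARγi-2, against 19.3%. MRPS34 had a log2 fold change of -1.62 (SE 0.16, limma adjusted p = 0.0153) with RARγi-2 and of -0.98 (SE 0.16, limma adjusted p = 0.0647) with RARγi-1, lower in 2 of 2 lines each time. With a mean-variance trend in limma, MRPS34 alone was called with RARγi-1 (1.28% of members, against 1.55% of all entries lower) and 13 members with RARγi-2 (16.7%, against 11.7%), all lower. Of all entries, 3.46% were called higher with RARγi-1 and 11.2% with RARγi-2 in that fit. With RARγi-2 the share of members called lower was thus below or above the background depending on the trend, and with RARγi-1 it was not above it in either fit.

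For 11 members (14.1%) both treated libraries lay on one side of control in PK-1 and on the other in Panc-1, close to the 12.4% of all entries. MRPL24, whose bacterial relative begins the assembly of the large subunit, was at 117 TPM in PK-1 Control, 77.4 TPM under RARγi-1 and 57.4 TPM under RARγi-2. In Panc-1 it was at 219, 294 and 258 TPM, above control in both treated libraries. MRPS30 was at 67.9, 62.0 and 45.5 TPM in PK-1 and at 52.4, 84.4 and 68.2 TPM in Panc-1. MRPL58, a release factor-like hydrolase that is also built into the large subunit and frees peptides from stalled mitoribosomes, was at 141, 119.7 and 106 TPM in PK-1 and at 144, 199 and 180.1 TPM in Panc-1. These opposite directions were not tested.

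The controls of the lines differed in single members more than in the whole. Panc-1 Control over PK-1 Control had a median log2 fold change of 0.20 over the 78 members and of 0.02 over all entries. More than 2-fold higher in Panc-1 Control were 8 members (10.3%, against 17.3% of all entries), and MRPL45 alone was more than 2-fold lower (1.28%, against 16.1%). The largest difference was that of MRPS12, the relative of bacterial S12 at the decoding centre, at 153 TPM in PK-1 Control and 733 TPM in Panc-1 Control. Among genes higher in Panc-1 Control, MRPS24 and MRPL23 followed, with log2 fold changes of 1.71 and 1.60. MRPL45, which tethers the mitoribosome to the inner membrane, was at 149 TPM in PK-1 Control and 35.2 TPM in Panc-1 Control (log2 fold change -2.05), and MRPS2 and MRPL30 came next (-0.84 and -0.77).

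Levels varied widely among members of the same particle. In PK-1 Control they ran from 17.8 TPM (MRPS25) to 565 TPM (MRPL51) with a median of 99.6 TPM, and in Panc-1 Control from 18.9 TPM (MRPL19) to 733 TPM (MRPS12) with a median of 115 TPM. Averaged over the controls, MRPL51, MRPL12 and MRPS12 were highest, at 468, 461 and 443 TPM, and MRPS25, MRPS14 and MRPL19 lowest, at 20.9, 22.7 and 23.8 TPM. The order was similar in the lines, with a Spearman's rho of 0.80 between the control levels over the 78 members. The spread among members in log2 TPM (SD over genes) was 0.99, 0.95 and 1.01 in the PK-1 libraries, as against 1.13, 1.12 and 1.12 in those of Panc-1, so that the range of levels was about as wide in treated libraries as in their controls.

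Of 105 entries named as pseudogenes of members, 3 were above the floor in any library, with 7.74 TPM as the highest value. MRPL45P2 was at 2.90 TPM in Panc-1 Control, 6.77 TPM under RARγi-1 and 7.29 TPM under RARγi-2, and MRPS31P5 at 3.97, 7.74 and 6.29 TPM. How reads shared between a gene and its copies were assigned is not given in the sources used here, so the values of MRPL45 and MRPS31 are uncertain.

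Promoters of the members are shown here for the 3 genes of lowest and the 3 of highest mean log2 fold change that had an entry in the RefSeq promoter table (GRCh38.p14), so that genes at both ends of the response can be read side by side. Of the 78 members, 70 matched by gene ID. Each run covers 150 bases before the start of the transcript and 30 bases from it, on the strand of the gene, with capitals marking matches to the motifs below. MRPS34 lies on the minus strand of chr16:1773105-1773284, MRPL12 on the plus strand of chr17:81703217-81703396 and MRPS27 on the minus strand of chr5:72320211-72320390. MRPL54 lies on the plus strand of chr19:3762532-3762711, MRPS10 on the minus strand of chr6:42217832-42218011 and MRPS16 on the minus strand of chr10:73252615-73252794.
MRPS34: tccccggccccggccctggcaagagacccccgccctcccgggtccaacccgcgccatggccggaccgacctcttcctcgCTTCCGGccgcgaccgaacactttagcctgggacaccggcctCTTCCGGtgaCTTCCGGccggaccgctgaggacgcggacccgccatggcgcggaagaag
MRPL12: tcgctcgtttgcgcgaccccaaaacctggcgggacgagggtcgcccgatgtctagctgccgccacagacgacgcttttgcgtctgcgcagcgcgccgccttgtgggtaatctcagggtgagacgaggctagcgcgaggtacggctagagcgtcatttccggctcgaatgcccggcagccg
MRPS27: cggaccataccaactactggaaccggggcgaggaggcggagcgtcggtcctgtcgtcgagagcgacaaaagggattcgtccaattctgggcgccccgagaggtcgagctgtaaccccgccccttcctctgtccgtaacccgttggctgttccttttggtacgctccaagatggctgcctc
MRPL54: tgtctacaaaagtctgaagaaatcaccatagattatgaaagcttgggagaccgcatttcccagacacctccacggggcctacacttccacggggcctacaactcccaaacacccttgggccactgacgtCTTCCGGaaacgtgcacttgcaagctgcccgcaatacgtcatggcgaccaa
MRPS10: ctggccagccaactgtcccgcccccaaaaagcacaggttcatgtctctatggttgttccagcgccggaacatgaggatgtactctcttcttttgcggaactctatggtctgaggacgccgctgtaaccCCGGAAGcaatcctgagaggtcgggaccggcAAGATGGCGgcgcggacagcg
MRPS16: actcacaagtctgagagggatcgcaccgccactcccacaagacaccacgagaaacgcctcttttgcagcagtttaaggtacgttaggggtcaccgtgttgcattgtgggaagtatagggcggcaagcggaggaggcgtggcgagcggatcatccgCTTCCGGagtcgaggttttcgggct

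The motifs searched, on both strands, were CCGGAAG (the core bound by ETS factors such as GABPA, a regulator of nuclear genes for mitochondrial proteins), AAGATGGCG (the core of YY1 sites), GCGCATGCG (the core of NRF1 sites), CACGTG (the E-box bound by MYC) and TTGCATCA (a C/EBP-ATF site). MRPS34 held the ETS core at 3 places, which began 71, 29 and 19 bases before the start. MRPL54 held it 21 and MRPS10 22 bases before the start, MRPS16 held it just after the start, and MRPS10 also held the YY1 core there. MRPL12 and MRPS27 held none of the 5 motifs, so that the ETS core was present at both ends of the response and absent from 2 of the 3 lowest genes. A match is a description of letters and says nothing of binding.

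Over the 70 members with a promoter of 300 bases (250 before the start and 50 from it, counting a gene once if any of its promoters matched), 30 (42.9%) held the ETS core, against 12.2% of 27305 genes with a promoter and 23.2% of the 9786 among them with at least 5 TPM. The YY1 core was in 13 (18.6%), against 2.14% and 4.81%. The NRF1 core was in 3 (4.29%, against 2.34% and 4.4%) and the E-box in 10 (14.3%, against 8.77% and 12.7%). The C/EBP-ATF site was in 0, against 1.08% and 0.746%, and 24 members held none of the 5.

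Members with the ETS core had median log2 fold changes of -0.19 and -0.27 in PK-1, as against -0.11 and -0.24 in Panc-1, for RARγi-1 and RARγi-2 in each. The 40 without it had -0.34 and -0.67 in PK-1, as against -0.15 and -0.31 in Panc-1. Both groups contained members at either extreme: with the core, values in PK-1 with RARγi-2 ran from -1.77 (MRPL16) to 0.39 (MRPL54), and without it from -2.01 (MRPL12) to 0.19 (MRPS6). The 13 members with the YY1 core had -0.13, -0.54, -0.27 and -0.14 in the 4 comparisons, and the 57 without it -0.28, -0.49, -0.13 and -0.28.

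Many members share their start region with a gene on the other strand. In GENCODE 29, 29 of the 78 members (37.2%) had a protein-coding gene on the opposite strand that started within 1000 bases, against 17.9% of 11297 protein-coding genes with at least 5 TPM. MRPS11 and MRPL46 start 34 bases apart from each other, and the neighbour of MRPL43 is TWNK, which encodes the mitochondrial DNA helicase. Whether reads were counted by strand is not given in the sources used here, so values of pairs that overlap (MRPL43 and TWNK, MRPL51 and NCAPD2, MRPS12 and SARS2 among those named) may not be fully separate.

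For the 25 members with a neighbour of at least 5 TPM, the median log2 fold changes of members and neighbours were -0.30 and -0.19 in PK-1 with RARγi-1, -0.43 and -0.25 in PK-1 with RARγi-2, -0.21 and -0.11 in Panc-1 with RARγi-1, and -0.13 and -0.22 in Panc-1 with RARγi-2. Pairs often differed, as in these examples chosen after their values were seen. MRPL57 and SKA3, a kinetochore gene, start 43 bases apart. Member and neighbour had log2 fold changes of -0.27 and -2.0 for PK-1 with RARγi-1, -0.49 and -3.49 in PK-1 with RARγi-2, 0.12 and -1.59 in Panc-1 with RARγi-1, and 0.08 and -2.23 in Panc-1 with RARγi-2. MRPL51 and the condensin gene NCAPD2 had -0.48 and -2.59 in PK-1 with RARγi-2, and -0.09 and -2.0 in Panc-1 with RARγi-2. For MRPS12 and SARS2, the mitochondrial seryl-tRNA synthetase gene, both were lower in every treated library, with -1.01 and -0.83 in PK-1 with RARγi-2 and -0.33 and -1.21 in Panc-1 with RARγi-2.

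Lists of partners of the mitoribosome were read beside the members, as counts and medians of their genes with at least 5 TPM. The shares of all entries against which these counts are read are those given above, 12.3%, 24%, 14.3% and 22% more than 1.5-fold lower and 23%, 23.7%, 19.4% and 18.9% higher. Of 5 mitoribosomal proteins with other symbols, 1, 2, 0 and 2 were more than 1.5-fold lower in the 4 comparisons (PK-1 with RARγi-1 and RARγi-2, then Panc-1) and 0 higher, with medians of -0.38, -0.56, -0.35 and -0.58. PTCD3, a small-subunit protein with pentatricopeptide repeats, was at 34.9, 22.8 and 12.8 TPM in PK-1 and at 25, 17.7 and 13.2 TPM in Panc-1. DAP3, a GTP-binding protein of the small subunit, was at 147, 150.2 and 143 TPM in PK-1 and at 189, 236 and 237 TPM in Panc-1. PTCD3 was thus below control in every treated library, and DAP3 was above it in both treated Panc-1 libraries.

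Of 26 factors for assembly of the mitoribosome and modification of its RNA, 4, 9, 1 and 3 were more than 1.5-fold lower and 0, 1, 1 and 2 higher, with medians of -0.31, -0.48, 0.00 and -0.06. The lower ones are 15.4%, 34.6%, 3.85% and 11.5% of the list. The methyltransferase genes MRM1 and MRM2, which modify the large ribosomal RNA, were lowest. MRM1 was at 31.9, 12.4 and 6.78 TPM in PK-1 and 10.5, 6.88 and 7.20 TPM in Panc-1, and MRM2 had log2 fold changes of -0.74, -1.39, -0.43 and -0.63. MPV17L2 and NSUN4 were highest by mean, with 0.60 and -0.14 in PK-1 with RARγi-2 and 1.0 and 0.75 in Panc-1 with RARγi-2.

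Of 16 mitochondrial translation factors, 5, 7, 0 and 2 were more than 1.5-fold lower and 1 was higher in each comparison, with medians of -0.20, -0.39, 0.08 and 0.01. LRPPRC, which stabilises mitochondrial mRNA, was at 144, 63.4 and 47.9 TPM in PK-1 and 114, 80.7 and 72.2 TPM in Panc-1. The elongation factor gene GFM1 was at 64.8, 27.9 and 26.4 TPM in PK-1 and 41.9, 33.4 and 28.2 TPM in Panc-1. The initiation factor gene MTIF3 went the other way, at 26.7, 38.7 and 46.7 TPM in PK-1 and 38.3, 63.7 and 58.2 TPM in Panc-1, and MTRF1 was second from the top with log2 fold changes between 0.28 and 0.63.

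Of 9 genes for transcription and upkeep of mitochondrial DNA, 3, 5, 2 and 1 were more than 1.5-fold lower and 0 higher, with medians of -0.28, -0.86, -0.16 and -0.03. TFAM, the factor that packages mitochondrial DNA and starts its transcription, was at 56.1, 25.2 and 13.9 TPM in PK-1 and at 36.8, 24.2 and 20.1 TPM in Panc-1. TWNK had log2 fold changes of -0.77, -1.67, -0.37 and -0.34. POLG and SSBP1 were the highest of the list, between -0.24 and 0.38. All 15 mitochondrially encoded genes listed in the tables were at the floor in all 6 libraries, so that nothing can be said of the RNAs that the mitoribosome translates.

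Of 7 nuclear regulators with at least 5 TPM, 0, 2, 0 and 1 were more than 1.5-fold lower and 1, 0, 1 and 0 higher, with medians of 0.01, 0.07, -0.10 and 0.10. GABPA was at 10.3, 10.4 and 7.84 TPM in PK-1 and 9.56, 7.16 and 8.36 TPM in Panc-1, and NRF1 at 10.6, 9.89 and 11.2 TPM in PK-1 and 12.5, 15.8 and 15.7 TPM in Panc-1. GABPB1 was highest of this list (0.49, 0.20, 0.78 and 0.56) and PPRC1 lowest (-0.56, -0.89, -0.14 and 0.10). PPARGC1A was at the floor in every library.

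Of 12 mitochondrial chaperones and proteases, 2, 4, 2 and 2 were more than 1.5-fold lower and 1, 1, 3 and 3 higher, with medians of -0.23, -0.41, 0.13 and 0.22. The co-chaperonin gene HSPE1 was at 584, 315 and 204 TPM in PK-1 and 697, 412 and 445 TPM in Panc-1. TRAP1 was at 276, 127 and 82.0 TPM in PK-1 and 152, 133 and 109 TPM in Panc-1. The protease genes LONP1 and YME1L1 were above control in every treated library, LONP1 with log2 fold changes of 0.67, 1.13, 1.22 and 1.46 and YME1L1 with 0.34, 0.46, 0.90 and 0.93.

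The genes of cytosolic ribosomal proteins, which translate nuclear messages, had medians of -0.10 and -0.04 in PK-1, as against -0.02 and -0.01 in Panc-1, nearer to 0 than the MRP genes in each comparison (-0.27, -0.48, -0.14 and -0.25). Among 5 epithelial markers, 2, 1, 3 and 3 were more than 1.5-fold lower and 1, 1, 0 and 0 higher.

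**Figure D5:**
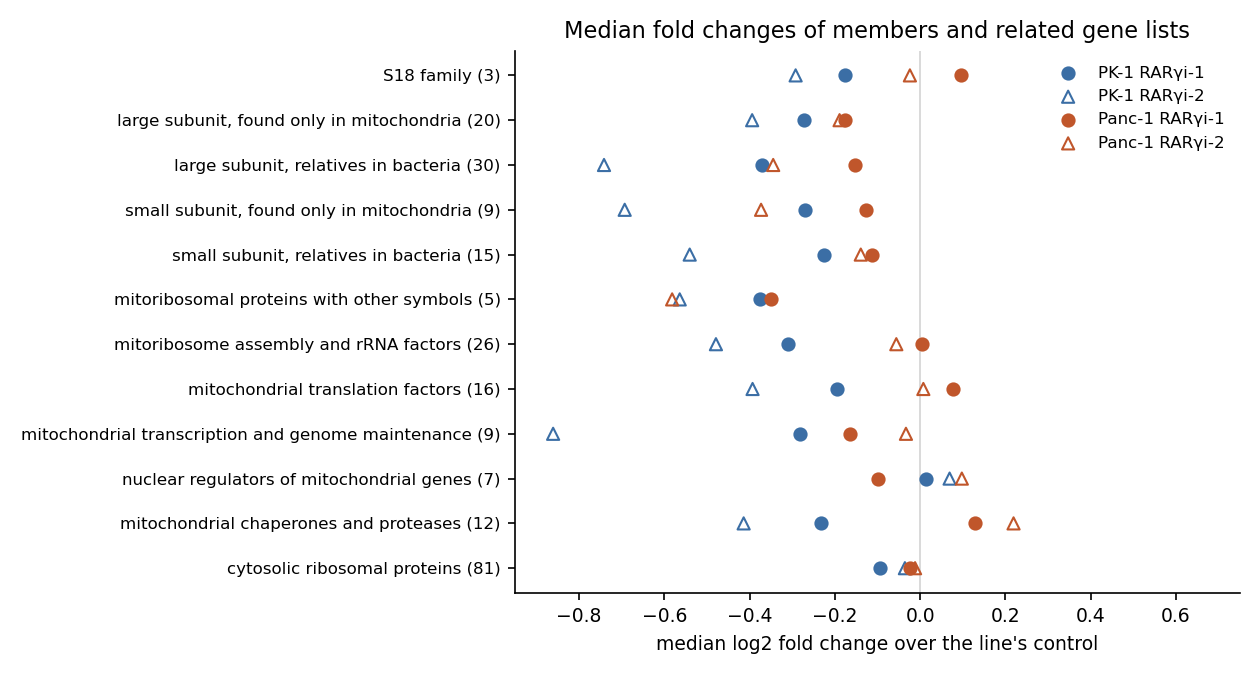
Median log2 fold change over the control of the line for groups of MRP genes and for related lists, with the number of genes in brackets, in PK-1 (blue) and Panc-1 (orange) with RARγi-1 (filled circles) and RARγi-2 (open triangles). Apart from the S18 family, which lies right of 0 in Panc-1 with RARγi-1, the groups of MRP genes lie left of 0 in all comparisons, and the cytosolic ribosomal proteins lie between -0.10 and -0.01.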

How the data were processed

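PK-1 and Panc-1 cells were sequenced with a stranded poly(A) library kit, and the labels name hg38 as the build. The aligner, counter and annotation are not given in the sources used here. The deposited values are log2 TPM per gene, made by the authors, with a floor at 1 TPM (0 on the log2 scale). The tables hold no read counts, so depth is unknown. Values were converted to TPM and a pseudocount of 1 TPM was added before fold changes were taken. Counts used thresholds of 2-fold and 1.5-fold over the 12412 entries with at least 5 TPM in any library. Each condition has 1 library, so p-values come only from a fit over both lines with line as block (limma 3.58.1), which was tested on simulated data, as were the fold calls. The members and lists were chosen with earlier results of these data known. Named genes were the 3 lowest and 3 highest in each comparison, the 5 lowest and 5 highest by mean, those past 2-fold, the 3 highest and lowest in level and between controls, and the MRPS18 family, and of each other list the 2 lowest and 2 highest. Python 3 with pandas was used, with promoters from RefSeq and gene starts from GENCODE 29.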

Additional observations from a re-analysis of the deposited data

Results flagged for a closer look

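For 11 members (14.1%) both treated libraries lay on one side of control in PK-1 and on the other side in Panc-1, as they did for 12.4% of all entries with at least 5 TPM. The difference between lines was not tested, and in each line both values share 1 control library, so that a deviation of that library alone would set both signs. The mean log2 fold change of the treated libraries in Panc-1 minus that in PK-1 was 1.13 for MRPL24, 0.87 for MRPS30, 0.82 for MRPS15, 0.71 for MRPL58, 0.68 for MRPL32, 0.50 for MRPL2, 0.49 for MRPS18C, 0.48 for MRPL57, 0.35 for MRPL21 and 0.22 for MRPS31. It was -0.33 for MRPS21, the only member of the 11 that was higher in PK-1 and lower in Panc-1. After rescaling by median ratios the pattern no longer held for MRPL2, whose log2 fold change in PK-1 with RARγi-2 turned from -0.04 to 0.00, nor for MRPL32 and MRPL21, whose values in Panc-1 with RARγi-1 turned from 0.03 to -0.06 and from 0.07 to -0.02.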

How the results depend on the processing

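Leaving out the pseudocount, lowering it to 0.1 TPM, rescaling by median ratios, a minimum of 20 TPM, no minimum and summing repeated symbols kept the direction of the median of the 78 members in the 4 comparisons and between the controls. Rescaling moved the fold changes of PK-1 with RARγi-1 by -0.11 log2 units, and the median of the members there became -0.37. After rescaling, 4 members were more than 2-fold lower in PK-1 with RARγi-1, 9 in PK-1 with RARγi-2 and 2 in Panc-1 with RARγi-1, and the last count was also 2 without a pseudocount and with 0.1 TPM. The medians of all entries changed with it, to 0.03 and 0.02 in PK-1 and to -0.03 (from 0.05) and 0.00 in Panc-1. On the strand of the gene alone, 16 of the 70 members with a promoter (22.9%) held the ETS core. This compares with 6.82% of all genes with a promoter and 13.4% of those with at least 5 TPM. No member past 2-fold changed sign under any of these settings. With line as the replicate block, a limma fit chosen after seeing the data called 0 members lower with RARγi-1 and 5 with RARγi-2, and with a mean-variance trend 1 and 13. A fit without the line block was not run. The 2 inhibitors of a line differed by a robust spread of 0.41 log2 units in PK-1 and 0.32 in Panc-1 in fold changes over genes, which includes real differences between them, and many members differ from control by less than that. Without read counts, the counting error of low members such as MRPS25 is unknown.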
